A study of Homo sapiens with 6 samples.

Results

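The resting transcriptome of HEK293T cells was described from the 3 GFP control libraries of a base-editing study. They were 3 of the 6 libraries of the series, chosen by their labels alone, and the libraries that received the base editor SpRY-Cas9-ABE8e were not used for any value. Each GFP library came from HEK293T cells, labelled as kidney tissue and epithelial cell type, that were transfected with a GFP plasmid by Lipofectamine 2000, a cationic lipid reagent. Plasmid and lipid were therefore shared by every library here, and none represents untouched cells. The time between transfection and harvest, and whether the numbered replicates were separate cultures, were not stated in these sources. The spread between libraries may thus be biological, technical or both.

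HEK293T is a human line derived from embryonic kidney cells that had taken up fragments of adenovirus 5 DNA, with the SV40 large T antigen added later. The adenoviral E1A and the SV40 protein bind the retinoblastoma family and so free E2F factors, and the p53 protein is bound as well. The line is widely used to express transfected genes, to package viral vectors and to assay receptors and channels, so which of its own genes are on or silent is of practical use. In a polyA-selected library, a gene's count depends on its mRNA abundance, its length and how reads that match several genes are treated.

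The 3 libraries held 128988337, 128223446 and 124681733 counts over 62700 Ensembl gene IDs, so 1 CPM, the count scaled to each library's own total, stood for 124.7 to 129.0 reads. Library 1 differed more from the other 2 than they did from each other. The chi-square per degree of freedom over genes with a mean of at least 10 reads was 197.8 between libraries 1 and 2 and 142.3 between libraries 1 and 3, against 35.5 between libraries 2 and 3. Every pair thus differed by more than sampling noise, and the libraries were counted as 3 samples. The median absolute log2 difference over detected genes was 0.26, 0.23 and 0.10 for the same pairs, and 129, 50 and 22 of 13351 genes differed by more than 2-fold.

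A gene was called detected when it reached 1 CPM in each of the 3 libraries. This held for 13351 of 62700 genes (21.3%), of which 11903 were protein-coding. Among 19831 protein-coding genes, 60.02% were detected, 2001 (10.1%) had no read in any library, and 5927 lay between. Without library 1, 13434 genes passed. With 188 protein-coding genes whose lowest library lay between 0.8 and 1 CPM and 151 between 1 and 1.2 CPM, few of that class sat near the limit. A gene with no read in all 3 libraries has an upper limit of 3 reads over their summed total, or 0.00786 CPM, which covers counting error only.

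The counts were concentrated in few genes. In libraries 1, 2 and 3, 50% of the counts fell on 804, 907 and 913 genes, and the 100 most abundant genes took 22.97%, 20.66% and 19.99%. Between ranks 10 and 1000 library 1 thus held the larger share, whereas the single most abundant gene took 1.03%, 1.17% and 0.933%, and 90% of the counts fell on 5695, 5640 and 5611 genes. Protein-coding genes at 100 CPM or above numbered 2218, or 11.2% of that class, and held 66.7% of all counts. The 5772 protein-coding genes with reads but a mean under 1 CPM held 0.0851%.

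**Figure D1:**
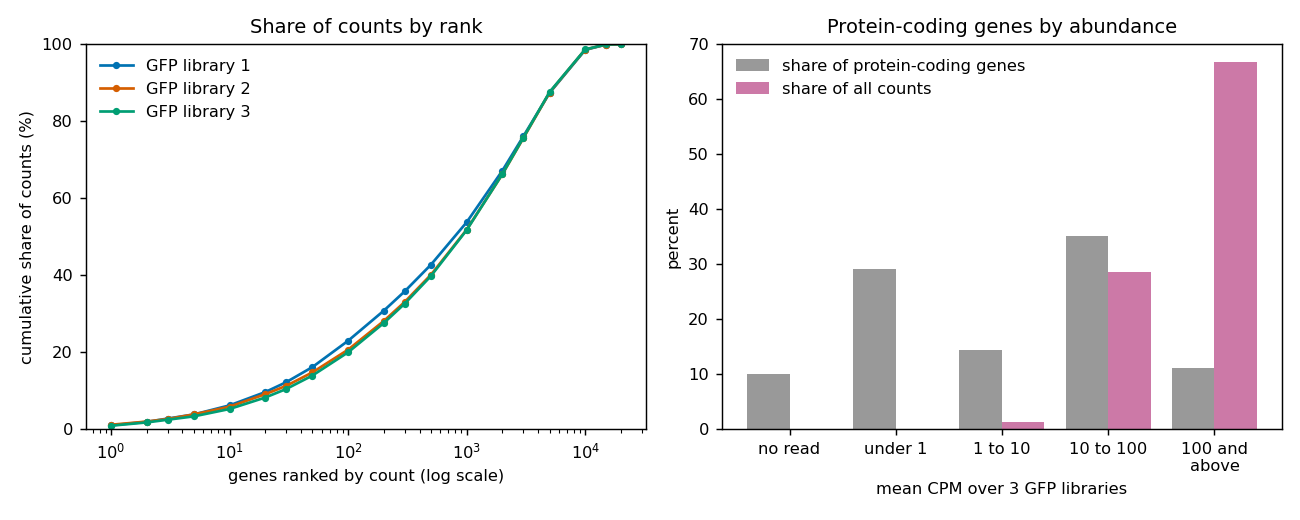
Left, cumulative share of counts (percent) against gene rank by count (log axis) in each GFP library. Right, share of the 19831 protein-coding genes (grey) and share of all counts (pink) by mean CPM over the 3 libraries. The line of library 1 runs above the others between ranks 10 and 1000, and genes at 100 CPM or above hold 66.7% of the counts.

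Mitochondrial, ribosomal and elongation factor transcripts headed the ranks. To compare genes, counts were divided by the merged exon length in GENCODE release 29 and scaled to a common total, as transcript abundance (TPM). MT-RNR2, the 16S rRNA of the mitochondrial ribosome, was first at 25547 ± 3090 TPM (SD, n = 3), with 10271, 11745 and 9333 CPM in libraries 1, 2 and 3. The mRNAs of cytochrome oxidase followed, with MT-CO3 at 15539 ± 1291, MT-CO2 at 14765 ± 2484 and MT-CO1 at 13114 ± 2994 TPM. Each of these 3 was highest in library 2.

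The first nuclear gene per length was EEF2, the translocase of translation elongation, at 6938 ± 581 TPM and 8366, 6678 and 7007 CPM. RPS2 of the small ribosomal subunit stood at 6733 ± 1044 TPM, GAPDH of glycolysis at 6092 ± 605 TPM and EEF1A1, which brings tRNAs to the ribosome, at 5507 ± 143 TPM. By CPM, which favours long transcripts, EEF1A1 was the first nuclear gene at 9089, 8229 and 8487 CPM. Both nuclear elongation factors were highest in library 1 by CPM. Of the 30 genes highest by TPM, 14 were mitochondrially encoded and 10 encoded cytosolic ribosomal proteins. Of the 30 highest by CPM, these numbers were 7 and 13, and 18 genes stood in both sets. Merged exons can be longer than the mRNA itself, which lowers TPM, and they came to 5948 bases for EEF1A1 and 784 for MT-CO3. With the length of the longest transcript instead, 23 of the 30 genes highest by TPM stayed in that set.

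All 13 mitochondrially encoded mRNAs were detected, from 846 ± 135 TPM for MT-ND6, the only one read from the light strand, to MT-CO3. The share of counts on mitochondrial genes was 3.66%, 4.49% and 3.42% in libraries 1, 2 and 3, with library 2 high. Within complex I, MT-ND5 spread more than most at 3533, 7373 and 5477 TPM. MT-ND4L, which shares a bicistronic mRNA and some bases with MT-ND4, stood at 2302, 5399 and 3692 TPM. For both, library 1 was low and library 2 high.

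Of 78 cytosolic ribosomal protein genes, 75 were detected, with a median of 1216 TPM against 5.14 TPM for all protein-coding genes. Their summed share of counts was 11.7%, 8.70% and 9.16%, and all 75 detected members were highest in library 1. The members not detected included RPS9 (45, 37 and 39 reads) and RPS18 (20, 5 and 10 reads). Ribosomes in general carry these proteins, and how reads were divided between these genes and their copies was not stated. RPS18 also lies in the region of chromosome 6 where counts were generally missing, as described further on.

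Gene classes differed widely in how many members were detected. Of 14711 long non-coding genes, 750 (5.10%) were detected, and the class took 1.11%, 0.978% and 1.01% of counts. The nuclear speckle RNA MALAT1 led it with 1399, 654 and 803 CPM, high in library 1. It was followed by the snoRNA host genes SNHG29 (948 ± 117 CPM) and SNHG16 (379 ± 63.7 CPM). Of 10639 processed pseudogenes, 487 (4.58%) passed, led by RPS2P5 at 807 ± 98.7, EEF1A1P5 at 342 and RPLP0P6 at 190 CPM. These are copies of abundant mRNAs, and how reads matching several copies were placed was not stated.

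Among 7040 small structured RNA genes, only 6 were detected in these polyA-selected libraries, which under-count RNA without a polyA tail. Immunoglobulin and T-cell receptor segments, which are joined by recombination in lymphocytes, gave 0 detected of 408, and 365 of them had no read. The highest was TRBV20OR9-2 at 0.209, 0.117 and 0.0962 CPM.

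Several families used in translation and splicing were nearly complete, while families of sensory, skin and secreted defence proteins were nearly empty. For comparison, 60.02% of all protein-coding genes were detected. The count was 12 of 12 for the SR splicing factors, 52 of 55 for genes named as eukaryotic initiation factors, 32 of 34 for tRNA synthetases and 72 of 78 for mitochondrial ribosomal proteins. Other families of basic cell functions were less complete, with 21 of 27 heterogeneous nuclear ribonucleoproteins, 17 of 29 tubulins and 17 of 74 histone genes detected. The histone family held replication-dependent and variant genes together. RNA without a polyA tail is under-counted in these polyA-selected libraries, so the histone count is not a measure of how many are expressed. At the other end, 1 of 388 olfactory receptors was detected. It was OR1F1, at 1.99, 1.39 and 1.42 CPM, and 221 of the family had no read. No taste receptor of 27, defensin of 45, interferon of 20 or late cornified envelope gene of 19 passed. Of 94 keratin-associated proteins of the hair shaft, KRTAP19-1 alone passed, at 3.02, 2.28 and 2.99 CPM.

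Transcription factor families differed in the share detected. Of 39 HOX genes, which set position along the body axis, 34 were detected, led by HOXD13 at 230, HOXB9 at 201 and HOXA5 at 94.5 TPM. Of 511 zinc finger genes of the ZNF series, 401 were detected, with ZNF703 at 494 TPM and ZNF146 at 226 TPM. The SOX and FOX families had 11 of 19 and 29 of 51 members detected, close to the share of all protein-coding genes. The clustered protocadherins, cell surface proteins from which single neurons choose small sets, were low: 2 of 53 passed, but 1 only had no read at all.

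**Figure D2:**
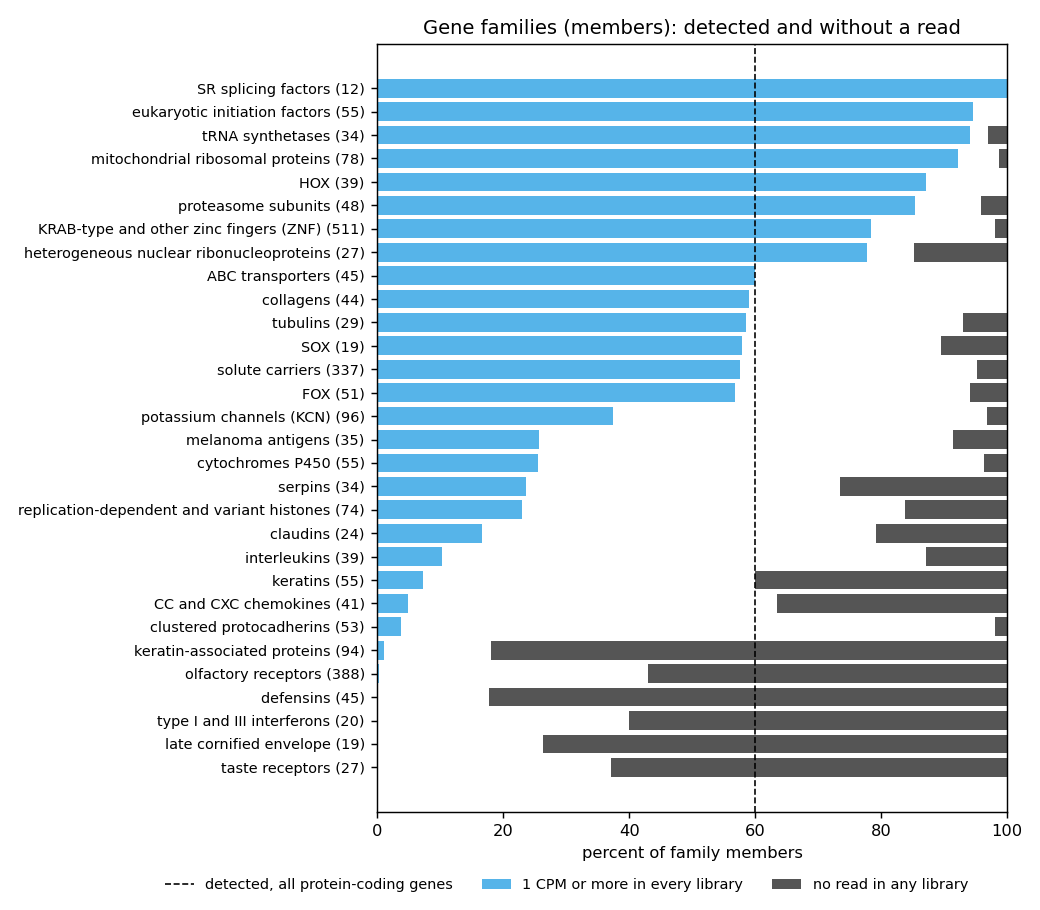
Share of each gene family detected at 1 CPM or more in every library (blue) and without a read in any library (dark), in percent, with the number of members in brackets. The dashed line marks the 60.02% of all protein-coding genes that were detected. SR splicing factors reach 12 of 12 members, while defensins, interferons, late cornified envelope and taste receptor genes have none.

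Lists of cell type markers and pathways, chosen with earlier results of these data known, were then read member by member. The background for the members detected, here and further on, is the 60.02% of all protein-coding genes. In such bulk RNA, fewer cells of a type and less RNA per cell cannot be told apart. The labels call the cells epithelial, and the markers gave a mixed picture in which mesenchymal genes led. All 7 mesenchymal markers were detected, with a median of 46.7 TPM against 1.51 TPM for the epithelial ones. The intermediate filament gene VIM stood at 895, 866 and 829 TPM and the adhesion gene CDH2 (N-cadherin) at 145, 204 and 189 TPM. The transcriptional repressors ZEB1, SNAI2 and TWIST1, which turn epithelial genes down in development, stood at 46.7 ± 12.96, 37.6 ± 1.66 and 34.5 ± 2.07 TPM.

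Of 8 epithelial markers, 5 were detected, a share near that of all protein-coding genes (60.02%). The simple-epithelium keratin gene KRT18 stood at 64.5, 58.6 and 51.9 TPM and its partner KRT8 at 8.14, 6.66 and 6.98 TPM. CDH1 (E-cadherin) stood at 4.46, 5.10 and 5.56 TPM. CDH1 was therefore below CDH2 per length in every library, and the ranges did not overlap. EPCAM was at 1.89 ± 0.410 TPM, CLDN4 at 0.219 TPM, and KRT19 had no read.

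Markers of the mature nephron differed by segment, with those of its later tubule near 0. None of 6 markers of the loop of Henle, distal tubule and collecting duct was detected, and their summed level was 0.0468 to 0.136 CPM per library. UMOD, the main protein of normal urine, had 4, 0 and 0 reads, the water channel gene AQP2 had 1, 0 and 0, and the salt transporter gene SLC12A1 had 2, 3 and 1. Of 7 proximal tubule markers, LRP2 (megalin) was detected at 7.71, 13.1 and 10.5 TPM, and SLC34A1 had no read. Of 5 podocyte genes 3 were detected, which is near the 60.02% of all protein-coding genes. These were PODXL (24.97 ± 2.36 TPM), WT1 and SYNPO, while the slit diaphragm gene NPHS1 stood at 0.0327 TPM.

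Transcription factors of the developing kidney were present in part. Of 25, 18 (72%) were detected, against 60.02% of all protein-coding genes. FOXC1, a forkhead factor of kidney and other mesoderm, led with 291, 341 and 317 TPM, followed by the stromal factor FOXD1 with 98.5, 100.3 and 90.4 TPM. SALL1 stood at 54.7, 76.5 and 71.2 TPM, lowest in library 1. SIX2, the factor that keeps nephron progenitors, was at 39.5 ± 2.84 TPM. Members that mark the first tubules were near 0: LHX1 at 0.0642 and PAX8 at 0.00928 TPM, and the proximal factor HNF4A at 0.0161 TPM.

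Neurofilament genes were abundant. NEFM, the medium neurofilament, stood at 233, 190 and 246 TPM, and NEFL, the light one, at 132, 160 and 153 TPM. Their heavy partner NEFH was at 0.0660 ± 0.00972 TPM. Of 13 neuronal markers, 9 (69.2%) were detected, against 60.02% of all protein-coding genes. Among them was SYT1 of synaptic vesicles at 14.6 ± 2.65 TPM. DCX of migrating neurons was at 0.0229 TPM and STMN2 at 0.990 TPM. TUBB3 stood at 0.118 TPM, but 35.8% of its exon bases are shared with another gene.

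Marker lists of most other lineages had few or no members detected, apart from the fibroblast list. No chromaffin marker of 6 and no adrenal cortex marker of 4 was detected, and the steroidogenic factor NR5A1 came closest at 1.504, 0.928 and 1.17 CPM, under the limit in library 2. Erythroid, hepatocyte and muscle lists had 0 of 3, 0 of 4 and 0 of 4 members detected. Of 6 immune markers 1 passed, and the leukocyte gene PTPRC was at 0.0132 TPM. Among 5 endothelial markers only KDR passed, at 0.808 TPM. Of 8 fibroblast markers 4 passed, led by COL3A1 at 7.62 and COL1A1 at 7.42 TPM, whereas COL1A2, whose product joins that of COL1A1 in type I collagen, was at 0.00174 TPM.

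**Figure D3:**
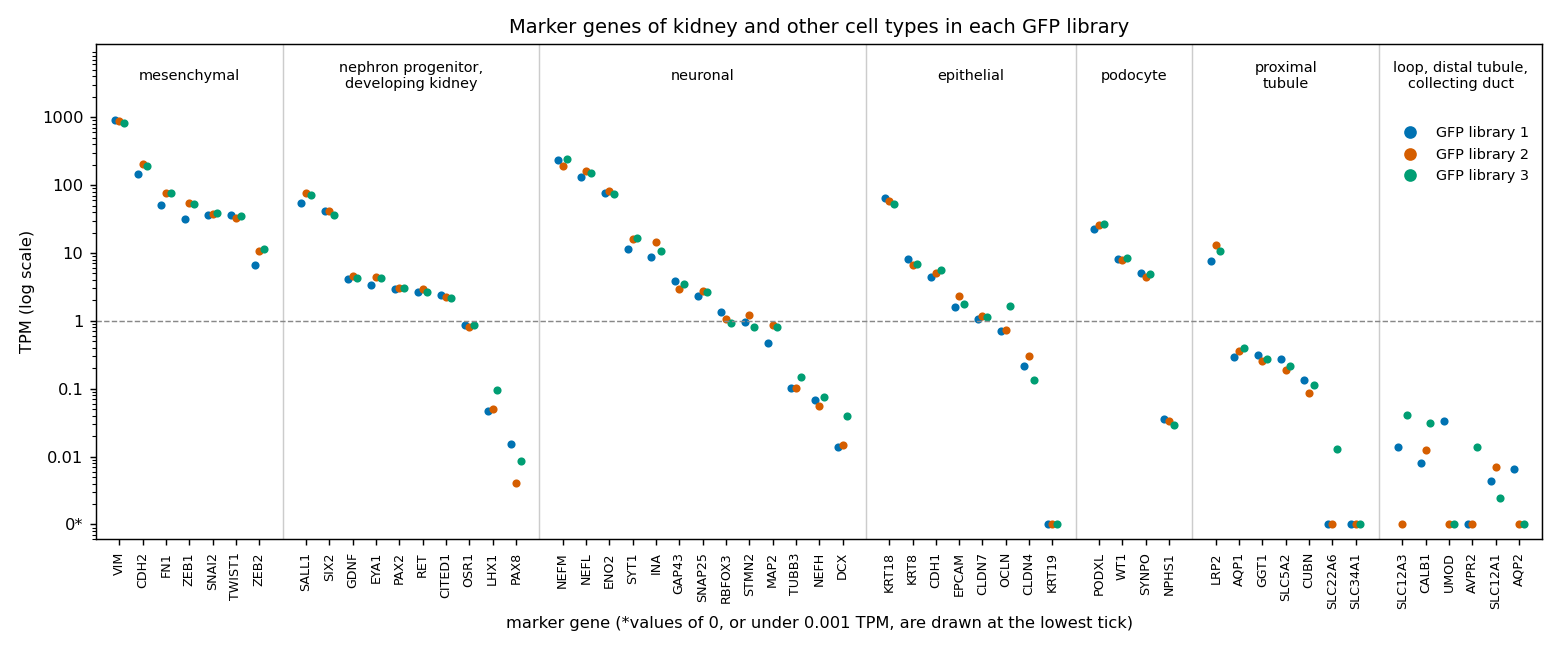
TPM (log axis) of marker genes in GFP libraries 1, 2 and 3, grouped by the cell type it marks, with values of 0 or under 0.001 drawn at the lowest tick and a dashed line at 1 TPM. The 7 mesenchymal markers lie above 1 TPM in all 3 libraries, while the 6 markers of the loop, distal tubule and collecting duct lie below 0.1 TPM.

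Genes known for their activity before birth were detected in part. Of 20 pluripotency and oncofetal genes 13 were detected, a share near that of all protein-coding genes (60.02%), and their median was 10.8 TPM against 5.14 TPM for all protein-coding genes. The chromatin protein gene HMGA1 stood at 870, 674 and 748 TPM, with library 1 high, and the surface proteoglycan gene GPC3 at 177, 196 and 180 TPM. The mRNA-binding proteins IGF2BP1, IGF2BP2 and IGF2BP3 stood at 177 ± 22.5, 127 ± 14.3 and 59.3 ± 9.69 TPM.

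LIN28B, which blocks maturation of the let-7 microRNAs, stood at 68.1, 96.9 and 117.2 TPM, whereas its relative LIN28A was at 0.0148 TPM. The pluripotency factor SOX2 was at 28.9 ± 1.78 TPM. Its usual partners were near 0, with POU5F1 at 0.00649 and NANOG at 0.00186 TPM. POU5F1 lies in the region of chromosome 6 where counts were generally missing, as described further on. TERT, the catalytic subunit of telomerase, was at 0.922 ± 0.0654 TPM. Of 23 cancer-testis genes, 4 passed, led by MAGEA3 at 33.2, 29.7 and 31.7 TPM.

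Cell cycle genes were on at high level. All 22 S phase genes and 19 of 20 G2/M genes were detected, with medians of 148 and 162 TPM. PCNA, the sliding clamp of DNA replication, stood at 616, 562 and 607 TPM and MCM7 of the replicative helicase at 346, 311 and 311 TPM. TOP2A, which untangles chromosomes, stood at 672, 872 and 908 TPM. MKI67, a widely used proliferation marker with a long mRNA, stood at 27.2, 35.4 and 52.3 TPM, so it spread more than CCNB1 at 281, 251 and 285 TPM.

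In the pathway of RB, E2F and p53, 38 of 39 genes were detected. E2F1 stood at 83.6, 78.0 and 71.9 TPM, and RB1 itself at 40.9, 71.9 and 68.1 TPM, low in library 1. PMAIP1, which encodes the death-promoting protein NOXA, led the list at 464, 466 and 561 TPM. CDKN2A, the locus of p16 and ARF, stood at 75.3 ± 11.4 TPM and CDKN1A (p21) at 95.1, 66.4 and 83.1 TPM. The exception was the imprinted inhibitor gene CDKN1C at 0.0780 TPM.

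Lists of receptors that couple to G proteins differed in the share detected. The counts were 4 of 14 adrenergic and muscarinic receptors, 5 of 25 for dopamine, serotonin, histamine and opioids, 6 of 21 purinergic and adenosine receptors, 11 of 26 lipid receptors, 11 of 45 peptide receptors and 1 of 22 chemokine receptors. All 6 shares lie below the 60.02% of all protein-coding genes. The list of adhesion, Frizzled and glutamate or GABA type receptors, at 24 of 36, was near that share, as were the G proteins, with 11 of 16 alpha subunits and 11 of 17 beta and gamma subunits. Most undetected members had some reads, such as all 20 of the dopamine, serotonin, histamine and opioid list. GNAS, which activates adenylyl cyclase, stood at 305, 278 and 306 TPM and GNA13 at 122, 187 and 182 TPM. GNAQ was at 67.2 ± 14.7 TPM, while the haematopoietic GNA15 was at 0.0263 TPM.

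Among the detected receptors, the chemokine receptor CXCR4 stood at 119, 152 and 120 TPM, and no other chemokine receptor was above 0.824 TPM (CCR10). The lysophosphatidic acid receptor LPAR3 stood at 59.1, 68.2 and 67.0 TPM, the thrombin receptor F2R at 44.0, 54.6 and 55.7 TPM and its relative F2RL1 at 28.1, 31.9 and 32.5 TPM.

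ADORA2B for adenosine was at 25.7 ± 1.004 TPM, ADRA2C at 16.1 ± 1.53, P2RY1 at 13.1 ± 3.31 and HTR6 at 12.5 ± 1.75 TPM. The muscarinic receptor CHRM3 stood at 2.64, 3.93 and 3.40 TPM, above CHRM1 at 0.00633 TPM. Receptors often studied by transfection in these cells had almost no counts, such as OPRM1 for morphine at 0.0262, DRD2 at 0.138 and GLP1R at 0.00626 TPM. Of 24 genes for arrestins, receptor kinases and RGS proteins, 18 were detected, with ARRB2 at 65.2 and ARRB1 at 15.4 TPM. The visual arrestin SAG was at 0.00569 TPM.

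Ion channel lists also differed. Of 30 voltage-gated sodium and calcium channel genes, 19 were detected, but their median was 1.24 TPM, and CACNA2D1, an auxiliary subunit, was the highest at 14.01 ± 4.05 TPM. The sodium channel SCN9A stood at 1.06, 2.68 and 1.94 TPM. Of 37 potassium channels 22 passed, led by the inward rectifier KCNJ8 at 77.2, 77.9 and 73.8 TPM and the leak channel KCNK1 at 25.1 ± 1.57 TPM. The calcium-activated channel KCNMA1, a common transfected channel, was at 0.0815 TPM.

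Chloride, volume, proton and mechanical channels had the highest share detected of the channel lists, 23 of 28. All 5 subunits of the volume-regulated anion channel were among them, from LRRC8D at 28.9 ± 3.71 and LRRC8A, the required one, at 23.7 ± 1.55 down to LRRC8E at 14.04 ± 0.774 TPM. The proton-activated chloride channel PACC1 was close to even by TPM, at 54.0, 52.2 and 53.2, and the acid-sensing channel ASIC1 stood at 30.7, 28.0 and 30.5 TPM. PIEZO1, a force-gated channel, was at 8.68 ± 0.494 TPM. The store-operated pair STIM1, the sensor in the endoplasmic reticulum, and ORAI1, the pore, stood at 38.0 ± 1.47 and 33.4 ± 4.91 TPM. Of 34 ligand-gated channels 11 passed, with the nicotinic subunit CHRNA5 at 31.1 ± 2.85 TPM.

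Of 52 receptor tyrosine kinases, 37 were detected. The ephrin receptor EPHA7 stood at 50.2, 73.0 and 78.9 TPM, the hepatocyte growth factor receptor MET at 47.5, 74.7 and 72.4 TPM and IGF1R at 48.0, 63.2 and 67.0 TPM. In all 3, library 1 was the lowest. KIT, the stem cell factor receptor, was at 35.9 ± 7.66 TPM, while CSF1R and ALK were at 0.0879 and 0.00829 TPM. Of 48 nuclear receptors, 37 were detected, with the clock repressor NR1D2 at 131 ± 29.7, the orphan receptor NR2F2 at 97.1 ± 7.23 and the glucocorticoid receptor NR3C1 at 57.9, 92.5 and 89.8 TPM. PPARG, the adipocyte regulator, stood at 54.6, 52.8 and 55.9 TPM. The oestrogen receptor ESR1 was at 0.00870 TPM.

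Lists of developmental signalling genes were detected at or above the 60.02% of all protein-coding genes. Of 36 genes of the TGF-beta and BMP pathways 33 were detected, with the ligands BMP2 at 92.3 ± 6.96 and BMP7 at 63.8 ± 1.65 TPM. Of 51 Wnt, Notch and Hedgehog genes 34 were detected, which is near that share. The Notch target genes HES1 and HEY1 stood at 347, 273 and 285 and at 196, 179 and 208 TPM, while the ligand SHH was at 0.105 TPM. Of 26 integrins 18 passed, also near it, with the shared beta chain ITGB1 at 154 ± 29.2 and ITGAV at 41.7 ± 13.02 TPM, and the leukocyte chain ITGB2 at 0.0993 TPM.

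Sensors of foreign nucleic acid were sparse. Of 33 Toll-like receptor and sensor genes, 13 (39.4%) were detected, against 60.02% of all protein-coding genes. The median of the list was 0.274 TPM. The cytosolic DNA sensor CGAS had 4, 2 and 7 reads, and its adaptor STING1 stood at 4.14, 4.07 and 3.78 TPM. TLR2 had 0, 2 and 0 reads, the RNA sensor RIGI was at 0.0510 TPM and IFIH1 at 1.66 TPM. Downstream parts were present, with the kinase TBK1 at 30.96 ± 4.91, IRF3 at 28.4 ± 5.16 and MAVS at 18.7 ± 2.85 TPM. EIF2AK2, the double-stranded RNA kinase PKR, stood at 27.8, 49.2 and 45.1 TPM.

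Of 25 interferon-stimulated genes 8 (32%) were detected, against 60.02% of all protein-coding genes, and the median of the list was 0.221 TPM. ISG15, a ubiquitin-like modifier, stood at 9.92, 5.99 and 7.88 TPM, while the antiviral GTPase MX1 was at 0.135 ± 0.0321 TPM. IFNB1 and IFNL1 had no read. Of 41 cytokine receptor and JAK or STAT genes 31 were detected, led by IL13RA1 at 103 ± 14.01 TPM.

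Stress and metabolic genes were abundant with clear exceptions. By TPM the chaperones HSP90AB1 and HSPA5 were close to even, at 2588, 2531 and 2639 and at 1045, 1019 and 1062. By CPM, HSP90AB1 was highest in library 1, at 2120, 1952 and 1998. ATF4, the factor of the integrated stress response, stood at 1198 ± 110 TPM. HSPA6, a chaperone known for its induction by heat, was at 0.381, 0.280 and 0.226 TPM. Of 30 hypoxia and glycolysis genes 29 were detected, with LDHA at 2258 ± 94.3, PGK1 at 1284 ± 85.9 and HK2 at 234, 345 and 316 TPM. CA9, a strongly oxygen-dependent gene, was at 1.36 ± 0.341 TPM.

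Most receptors through which viruses and gene-transfer vectors enter cells were present, 21 of 28 (75%), against 60.02% of all protein-coding genes. SLC1A5, used by several retroviruses, stood at 374, 344 and 331 TPM, the transferrin receptor TFRC at 124, 195 and 175 TPM and the gibbon ape leukaemia virus receptor SLC20A1 at 95.01 ± 6.04 TPM. CXADR for adenovirus was at 40.3 ± 6.56 and KIAA0319L for adeno-associated virus at 38.9 ± 1.72 TPM. TMPRSS2, a protease that primes viral spike proteins, was at 0.340 TPM. For glycoprotein maturation, 26 of 27 N-glycan genes were detected, with the oligosaccharyltransferase subunit STT3A at 242, 244 and 249 TPM and the sialyltransferase ST6GAL1 at 19.3 ± 1.93 TPM. The protease FURIN was close to even by TPM, at 62.7, 61.9 and 61.6, while the neuroendocrine convertase PCSK1 was at 0.0980 TPM.

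Drug-handling genes were few. Of 38 transporters and cytochromes P450, 14 (36.8%) were detected, against 60.02% of all protein-coding genes. The nucleoside carrier SLC29A1 was the highest at 43.8 TPM, ABCB1 (P-glycoprotein) stood at 11.004 TPM, and the main hepatic enzyme CYP3A4 was at 0.0228 TPM. Among enzymes that edit nucleic acid, ADAR, which deaminates adenosine in RNA, stood at 131, 163 and 175 TPM, APOBEC3C at 140, 119 and 123 TPM and APOBEC3B at 14.6 ± 1.07 TPM. APOBEC1 had no read. Of 14 DNA methylation genes 13 were detected, with the maintenance enzyme DNMT1 at 79.8, 93.1 and 94.4 TPM and the oxidase TET1 at 34.2, 77.6 and 75.4 TPM, low in library 1. DNMT3L had no read.

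Low counts were frequent among genes that share at least 50% of their exon bases with other annotated genes, on either strand. Whether the sharing lowered their counts was not tested. A low count in this table is not by itself a sign of a silent gene. The share of protein-coding genes detected was 56.005% for 11008 genes that share no exon base with another gene of GENCODE release 29, 74.6% for 6680 genes with up to 25% shared and 57.002% for 1014 genes with 25% to 50%. It was 35.9% for 396 genes with 50% to 75% shared, 10.3% for 281 genes with 75% to 95%, and 2.21% for 407 genes with 95% or more. Of the 1966 protein-coding genes without a read that could be checked, 470 (23.9%) shared at least 50% of their exon bases, against 180 of 11903 detected genes (1.51%).

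Several genes of basic metabolism are examples, taken from the lists or picked once their counts were known. ATP6V0C, the proton-conducting ring of the vacuolar ATPase, had 4, 4 and 3 reads with 72.1% of its exon bases shared. CYP51A1 of cholesterol synthesis stood at 4.12, 4.55 and 4.42 CPM with 83.2% shared, and the glycolytic enzyme ALDOA at 27.8, 21.3 and 19.4 CPM with 53.5% shared. The annotation release behind the authors' counts was not stated.

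The other pattern was regional. On chromosome 6 between 29 and 34 Mb, which holds the major histocompatibility complex, 15 of 182 protein-coding genes (8.24%) were detected and 107 had no read. In the next Mb, from 34 on, 10 of 13 passed. The genes CLIC1 (1, 0 and 1 reads), BAG6 (4, 13 and 9 reads), FLOT1 (4, 13 and 2 reads) and TUBB (14, 7 and 17 reads) lie inside, and except for CLIC1, a channel list member, they were picked once their counts were known. Of the classical class I genes there, HLA-B stood at 43.5, 27.4 and 29.3 CPM and HLA-C at 29.7, 20.1 and 21.9 CPM. This region has alternative haplotype sequences in the human assembly, and whether the authors aligned to them was not stated. Chromosome 6 was not alone in having few genes detected. Of other 1 Mb windows, picked once their counts were known, that from 54 Mb on chromosome 19 had 2 of 38 genes detected. Those from 36 Mb on chromosome 17 and from 7 Mb on chromosome 8 had 0 of 19 and 0 of 21. Olfactory receptor, keratin and similar gene families were left out of these other windows, but not out of the 182 genes on chromosome 6. Without them, the window from 29 Mb on chromosome 6 held 8 genes instead of 22, with 0 detected in both counts. The near-identical SMN1 and SMN2, picked likewise, had 0, 0 and 1 and 19, 15 and 14 reads.

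**Figure D4:**
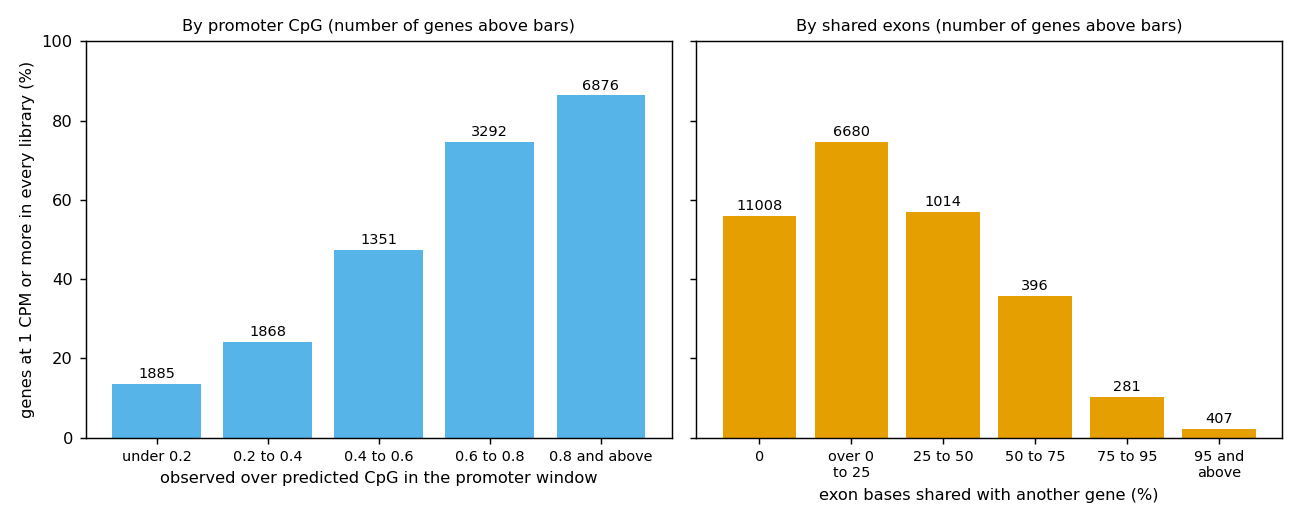
Share of protein-coding genes at 1 CPM or more in every library (percent, bars from 0), by the observed over predicted number of CpG dinucleotides in the promoter window (left) and by the share of exon bases that overlap another gene (right), with the number of genes above each bar. Detection goes from 13.5% to 86.3% across the CpG classes and is 2.21% where 95% or more of the exon bases are shared, with its highest share, 74.6%, at up to 25% shared.

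Promoter sequence differed between detected and undetected genes. Many promoters of broadly used genes lie in CpG islands, stretches where the CG dinucleotide has not been lost to methylation, while many tissue-restricted genes start from CpG-poor promoters, some with a TATA box. Promoter windows of 300 bases, from 250 before to 50 after the start, were matched by symbol in RefSeq (GRCh38.p14) for 15272 of 19831 protein-coding genes. The 5 windows printed here, each with its first 280 bases, contrast genes at the top and bottom of the ranks. Capitals mark TATAAA where it starts 45 to 21 bases before the start site, and a run of C and T at the start site itself, the mark of the terminal oligopyrimidine mRNAs whose translation follows nutrient signals.
RPLP0, chr12:120201082-120201361, minus strand: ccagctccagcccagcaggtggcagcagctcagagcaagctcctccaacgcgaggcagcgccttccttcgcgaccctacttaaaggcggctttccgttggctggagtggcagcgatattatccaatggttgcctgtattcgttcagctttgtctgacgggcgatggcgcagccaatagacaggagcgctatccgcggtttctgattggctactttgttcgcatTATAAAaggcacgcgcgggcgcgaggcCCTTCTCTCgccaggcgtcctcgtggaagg
EEF2, chr19:3985434-3985713, minus strand: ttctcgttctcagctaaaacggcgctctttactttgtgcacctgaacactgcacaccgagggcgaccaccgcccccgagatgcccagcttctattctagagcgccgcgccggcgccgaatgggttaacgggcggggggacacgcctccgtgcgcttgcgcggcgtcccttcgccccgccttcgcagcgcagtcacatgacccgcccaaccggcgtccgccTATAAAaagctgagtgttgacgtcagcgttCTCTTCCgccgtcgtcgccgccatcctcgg
FOXC1, chr6:1609665-1609944, plus strand: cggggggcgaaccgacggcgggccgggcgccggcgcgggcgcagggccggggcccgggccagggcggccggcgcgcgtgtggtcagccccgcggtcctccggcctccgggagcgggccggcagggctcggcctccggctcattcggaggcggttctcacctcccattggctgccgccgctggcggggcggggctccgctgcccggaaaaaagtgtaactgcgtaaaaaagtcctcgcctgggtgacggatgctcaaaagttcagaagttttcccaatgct
AQP2, chr12:49950487-49950766, plus strand: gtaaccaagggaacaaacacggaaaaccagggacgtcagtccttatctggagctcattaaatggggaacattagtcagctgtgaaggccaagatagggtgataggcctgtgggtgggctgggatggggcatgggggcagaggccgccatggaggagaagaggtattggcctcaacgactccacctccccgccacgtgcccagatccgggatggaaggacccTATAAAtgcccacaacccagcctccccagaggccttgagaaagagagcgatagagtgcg
UMOD, chr16:20352686-20352965, minus strand: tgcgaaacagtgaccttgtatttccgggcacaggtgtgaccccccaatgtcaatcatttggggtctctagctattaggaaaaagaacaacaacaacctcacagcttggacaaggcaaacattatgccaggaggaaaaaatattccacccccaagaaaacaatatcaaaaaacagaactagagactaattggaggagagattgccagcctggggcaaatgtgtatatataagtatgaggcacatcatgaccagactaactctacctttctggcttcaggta

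The 300-base windows held 25 CG dinucleotides for RPLP0 (2182 CPM), 41 for EEF2 (7350 CPM) and 40 for FOXC1 (326 CPM), against 11 for AQP2 and 2 for UMOD. The ratio of observed to predicted CpG was 0.980, 1.36 and 1.02 for the expressed genes and 0.450 and 0.142 for the other 2. RPLP0 and EEF2 start with runs of 9 and 7 pyrimidines. TATAAA is found in RPLP0, EEF2 and AQP2, starting 27, 30 and 29 bases before the start, so this word alone did not part these genes.

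Over all matched genes, the median CpG ratio was 0.226 for genes without a read, 0.387 under 1 CPM, 0.790 from 1 to 10, 0.853 from 10 to 100 and 0.889 at 100 CPM or above. A ratio above 0.6 was found in 18.6% of the lowest class and 91.4% of the highest. Read the other way, 13.5% of 1885 genes with a ratio under 0.2 were detected, against 86.3% of 6876 genes at 0.8 or above. TATAAA on the coding strand, at the position given, was found in 11.9% of genes without a read and 3.74% of all. It was found in 0.917% of genes from 10 to 100 CPM and in 1.88% at 100 CPM or above. A run of at least 5 pyrimidines that opens with C at the start site was found in 42 of 62 ribosomal protein genes (67.7%) and in 4.66% of all. These are letter matches across genes, which are not independent replicates, and they do not show that a factor binds.

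The spread between the 3 libraries exceeded counting noise for most genes at this depth. A chi-square test of homogeneity over the 3 libraries, with Benjamini-Hochberg adjustment, passed 0.05 for 13410 of 20147 genes with a mean of at least 10 reads (66.6%). Among protein-coding genes the share called was 25.6% under 1 CPM and 98.6% at 100 CPM or above, so it was higher where more reads were counted. Without library 1, 7762 genes were called. The common biological coefficient of variation (edgeR) was 0.162 over all 3, 0.0894 without library 1, 0.169 without library 2 and 0.199 without library 3.

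Library 1 differed from the others along 2 properties of the transcripts. Each gene's log2 CPM was set against its mean over the 3 libraries. For detected protein-coding genes under 1500 bases of merged exons, the median deviation was 0.25 in library 1, -0.15 in library 2 and -0.10 in library 3. For genes of 9000 bases or more it was -0.19, 0.11 and 0.07. By GC content of the longest transcript, the medians were -0.20, 0.11 and 0.09 under 40% and 0.21, -0.08 and -0.13 at 60% or above. Library 1 was thus high for short and GC-rich transcripts and low for long and AT-rich ones.

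The 2 properties were each visible when the other was held in a range. Among genes under 45% GC, the median deviation of library 1 was 0.09 for 284 genes under 2500 bases and -0.21 for 3062 genes of 5000 bases or more. Among genes of 55% GC or above, it was 0.28 and 0.11 for the same lengths (649 and 1309 genes). The ribosomal protein genes had median deviations of 0.28, -0.17 and -0.09. The median length and GC of that list fall in the range of 45% to 55% GC and 2500 to 5000 bases. The 1250 genes in this range had medians of 0.07, -0.05 and -0.03. Those of 493 genes of the same GC but under 2500 bases were 0.18, -0.12 and -0.06. Merged exons can be longer than the mRNA itself. Whether the ribosomal protein genes deviated beyond genes of like mRNA length and GC was not tested. What set library 1 apart was not tested.

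**Figure D5:**
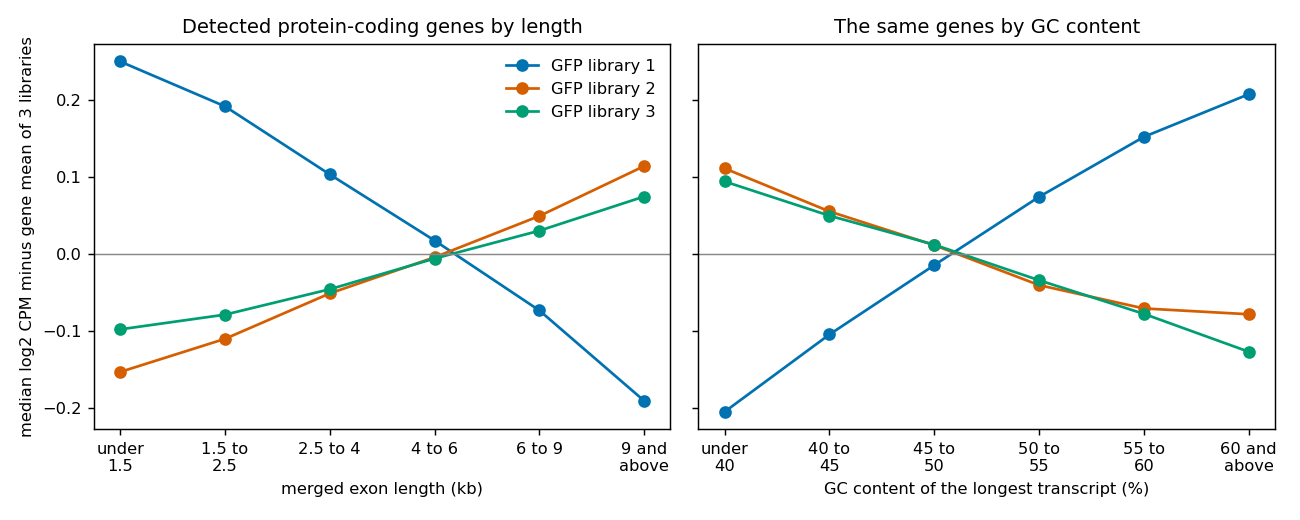
Median deviation of log2 CPM from each gene's mean over the 3 GFP libraries, for detected protein-coding genes binned by merged exon length (left, kb) and by GC content of the longest transcript (right, percent). Library 1 goes from 0.25 to -0.19 with length and from -0.20 to 0.21 with GC content, and libraries 2 and 3 run the opposite way.

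Large differences between libraries were few. Of 10841 genes with a mean of at least 5 CPM, 94 differed by more than 2-fold between the highest and lowest library and 1196 (11.03%) by more than 1.5-fold. Library 1 was below both others by more than 1.5-fold for 435 genes, whose median merged exon length was 10626 bases and median GC content 39.1%. It was above both for 60 genes, with medians of 1881 bases and 61.3%. For library 2 these counts were 16 and 11, and for library 3 they were 2 and 2.

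The widest spreads, named by their ratio of highest to lowest library, included pseudogenes and copies of abundant genes. CUTA, on chromosome 6 from 33416442 to 33418317 (GRCh38, minus strand) inside the region described above, had 2702, 24 and 24 reads, so library 1 alone held nearly all of them. U2AF1L5 on chromosome 21, named for its likeness to the splicing factor gene U2AF1, stood at 13.2, 1.11 and 1.37 CPM, and U2AF1 itself, picked beside it, at 0.876, 0.507 and 0.722 CPM. The processed pseudogene NPM1P6 stood at 35.9, 1.84 and 2.08 CPM, while its parent NPM1 was at 4046, 3565 and 3784 CPM. EEF1A1P13 stood at 7.01, 65.1 and 6.07 CPM, with library 2 high, and EEF1A1 did not share that pattern.

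YWHAE, an adaptor that binds phosphorylated proteins, on chromosome 17 from 1344272 to 1400378 (GRCh38, minus strand), stood at 3.78, 20.004 and 9.02 CPM, so no 2 libraries were alike. NAP1L4, a histone chaperone, stood at 11.3, 9.05 and 2.33 CPM, with library 3 low. How reads with several matches were counted was not recorded for any of these genes, and its part in their spread was not tested.

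A smaller set of genes was low in library 2 and not in the others. ID1, an inhibitor of differentiation factors, stood at 17.7, 5.18 and 13.3 CPM and its relative ID3 at 51.2, 19.6 and 40.2 CPM, both known targets of BMP signals. PCK1 of gluconeogenesis stood at 26.2, 9.55 and 25.6 CPM, and the hormone subunit gene CGA, picked for this pattern, at 21.3, 8.73 and 17.9 CPM. Cholesterol synthesis genes were, by their median, also lowest in library 2. The median deviation of the 22 of 23 members detected was 0.18, -0.22 and 0.02, and INSIG1, a sterol sensor partner, stood at 582, 367 and 611 CPM. IDI1 of isoprenoid synthesis stood at 292, 173 and 305 CPM. Summed immediate-early genes were also lowest in library 2, at 1040, 734 and 944 CPM, and JUN stood at 373, 232 and 342 CPM.

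The genes used most often as internal standards were all detected, 21 of 21, but differed in how even they were. HPRT1 of purine salvage stood at 230, 222 and 219 CPM, and the transcription factor TBP at 35.7, 38.2 and 34.9 CPM. GAPDH stood at 5544, 4561 and 4240, ACTB at 1954, 1700 and 1559 and PPIA at 840, 620 and 697 CPM, each highest in library 1, whereas IPO8 was lowest there at 140, 181 and 177 CPM. The most even of all genes above 20 CPM, named because of these values, were MYLIP, a ubiquitin ligase of the LDL receptor, at 24.8 CPM in all 3 libraries and JPT2 at 140.3, 140.3 and 140.6 CPM. Among abundant genes, and picked likewise, the histone chaperone gene SET was close to even at 992, 985 and 982 CPM. With only 3 libraries, such closeness is a description of these libraries.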

How the data were processed

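RNA-seq counts were read for the 3 GFP libraries only. Per the labels, RNeasy columns gave the RNA, and polyA libraries from a TruSeq mRNA kit were run on a NovaSeq 6000. The authors deposited raw read counts per Ensembl gene for all libraries in 1 table. The submitters' processing notes name HISAT2, featureCounts and limma, without versions. The genome build, gene annotation, strandedness and handling of multiply mapped reads were not stated.

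Counts were divided by each library's own total to give CPM. TPM used merged exon lengths from GENCODE release 29, which held 58207 of the 62700 IDs. The 4493 other IDs took 0.147% of counts and have no TPM. Levels were compared between genes as TPM. Differences between libraries within a gene are given as CPM or TPM, as named, and calls of high or low refer to that scale. The 2 scales can differ. MYLIP was at 24.8 CPM in all 3 libraries but at 29.8, 31.6 and 32.2 TPM. EEF1A1 was highest in library 1 by CPM but in library 3 by TPM, at 5559, 5345 and 5616. Detection needed 1 CPM in every library. Spread was tested per gene by a chi-square test of homogeneity with Benjamini-Hochberg adjustment at 0.05 (scipy 1.17.1), and the coefficient of variation came from edgeR 4.0.16 in R 4.3.3 with an intercept only. Log2 deviations used a pseudocount of 0.1 CPM. The tests were checked on simulated counts with known differences. Other steps ran in Python 3.11.15 with pandas 2.3.3. Promoter sequences are from RefSeq (GRCh38.p14).

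The gene lists and the members named were chosen with earlier results of these data known. Named genes were the 30 highest by CPM and by TPM, the 3 highest of each gene class, the 20 with the widest ratio between libraries at a mean of at least 5 CPM, and list members, chiefly the highest by TPM and the defining ones near 0. Others are said to be picked by their values. The libraries held 124681733 to 128988337 counts, and p-values measure only how these 3 libraries differ, possibly for technical reasons. The transcript of X inactivation, Y-linked genes and some other genes are not reported here.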

Additional observations from a re-analysis of the deposited data

How the results depend on the processing

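No paired analysis was possible because only the GFP group was described. The number of detected genes (13351) ranged from 13350 with TMM scale factors to 19077 with at least 10 reads in every library, and leaving out 1 library gave 13426 to 13466. Without mitochondrial genes, 50% of the counts fell on 959 genes instead of 875, and the 100 most abundant genes took 19.3% instead of 21.2%. Leaving out 1 library gave 7762 to 12204 genes with spread beyond counting noise, against 13410 with all 3, and a common coefficient of variation of 0.0894 to 0.199. Both lowest values were those without library 1. Of 60 lists, the number of members detected differed by more than 1.5-fold in 14 with at least 10 reads in every library, in 3 with at least 1 TPM and in 1 without library 2. With the longest transcript in place of merged exons, 658 of 1361 members changed rank per length by more than the SD over libraries, so close neighbours in the order by TPM are not resolved. At this depth, counting error is small above 1 CPM and sets the limit only for genes with a few reads.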

Other observations

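Further gene groups of the GFP libraries were described in the same way, and the genes named in them were picked after their values were seen. Immediate-early genes, which respond to growth factors and stress within minutes, were mostly detected, 19 of 21. The AP-1 gene JUN stood at 383.5, 252.7 and 380.3 TPM, the stress factor gene ATF3 at 230, 179 and 233 TPM and the phosphatase gene DUSP1 at 138.9, 100.3 and 135.1 TPM, each lowest in library 2. IER3 had 1 read in each library and lies in the chromosome 6 region with few counts. The same holds for the heat-inducible chaperones HSPA1A (0, 0 and 1 reads) and HSPA1B (3, 2 and 2 reads), while the cytosolic chaperone gene HSP90AA1 stood at 1145 ± 99.2 TPM and HSPD1 of the mitochondrial matrix at 1082 ± 41.9 TPM.

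Of 13 genes for amyloid precursor proteins and the enzymes that cut them, 12 were detected. APLP2 stood at 265, 273 and 293 TPM, and the gamma-secretase subunit gene NCSTN at 63.8 ± 4.36 TPM. PSEN2, a catalytic subunit of the same enzyme, was at 0.323 ± 0.0890 TPM. Of 21 genes for adenylyl cyclases and phosphodiesterases, which make and break down cyclic AMP, 15 were detected. The cyclase genes ADCY3, ADCY9 and ADCY1 stood at 33.8 ± 2.61, 24.3 ± 2.48 and 21.5 ± 4.15 TPM, while ADCY8 and ADCY4 were at 0.00818 and 0.00721 TPM. Among adhesion, Frizzled and glutamate or GABA type receptors, the latrophilin gene ADGRL2 stood at 72.7, 120.5 and 117.2 TPM, low in library 1, and the Hedgehog transducer SMO at 43.7 ± 2.64 TPM.

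The highest histone gene by TPM was the linker histone gene H1-2 at 570, 380 and 511 TPM. Collagens gave 26 of 44, led by COL6A1 at 86.2 ± 4.87 TPM, and the cartilage collagen gene COL2A1 stood at 22.5, 20.96 and 22.4 TPM. Of 35 melanoma antigen genes 9 were detected, and MAGED2 and MAGED1 of the broadly expressed branch led at 364 ± 34.5 and 314 ± 50.3 TPM. By chromosome, the share of protein-coding genes detected went from 47.0% on chromosome 21 and 51.9% on X to 68.8% on chromosome 18, leaving aside the mitochondrial genome, where all 13 genes were detected.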
